A study of Homo sapiens with 12 samples.

Results

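Transcripts of 10 genes for Norrin and WNT receptors, beta-catenin and its regulators were followed across 12 RNA sequencing libraries of HMEC-1, endothelial cells of human skin microvessels that were immortalised as a line. The genes are FZD4, FZD6, FZD7, LRP5, LRP6, TSPAN12, CTNNB1, AXIN1, GSK3B and DKK1, chosen by name because they form the receptor and the signal route of one pathway, and all 10 were found among the 36433 gene symbols of the deposited table. The cells stood in EBM-2 medium with the EGM-2 BulletKit and received 50 nM of a synthetic mimic of miR-126, miR-143 or miR-150 (miR126, miR143 and miR150 in the labels) or of a non-targeting scrambled RNA, the control. Every group, the control included, was transfected with Lipofectamine RNAiMAX and collected 48 h later, and each had 3 libraries, numbered 2 to 4. The series' title concerns these microRNAs in pathological angiogenesis of the retina. The cells are dermal, not retinal, and are 1 line. Nothing in the labels says that the 3 libraries of a group are separate cultures. The spread that the p-values measure is that of these libraries alone and may be technical.

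Norrin is a secreted ligand of retinal glia that binds the receptor frizzled 4 (FZD4) on endothelial cells, together with the co-receptor LRP5 or LRP6 and the tetraspanin TSPAN12. WNT proteins use the same co-receptors with other frizzled receptors. Either ligand halts the destruction complex, in which the scaffold AXIN1 and the kinase GSK3B mark beta-catenin (CTNNB1) for degradation, and beta-catenin then accumulates and acts with TCF and LEF proteins in the nucleus. DKK1 is a secreted inhibitor that binds LRP5 and LRP6. Loss of FZD4, LRP5, TSPAN12 or the Norrin gene NDP causes incomplete growth of retinal vessels in people, as in familial exudative vitreoretinopathy. Beta-catenin also holds together adherens junctions by binding VE-cadherin. The RNA measured here gives the level of each transcript and not the activity of the pathway, which is set largely by the stability of the beta-catenin protein.

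The mature sequences of miR-126 and miR-143, from RefSeq (GRCh38.p14), are shown because the seed, bases 2 to 8 and in capitals here, is the part that pairs with target transcripts. The labels do not say which arm of the hairpin the mimic carries, and the 3p arm is shown for each. Seed matches of miR-150 were not analysed here. The mature forms lie on chromosome 9, 136670653 to 136670674, plus strand, and on chromosome 5, 149428978 to 149428998, plus strand.
hsa-miR-126-3p: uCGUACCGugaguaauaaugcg
hsa-miR-143-3p: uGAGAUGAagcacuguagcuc
The sense strand of the longest annotated 3′ UTR of each gene was searched for matches. CGGTACG, which pairs with bases 2 to 8 of miR-126-3p, was in 0 of the 10 genes and in 0.214% of 19128 human 3′ UTRs. TCATCTC, the same for miR-143-3p, was in 0 of the 10 genes and in 13.3% of those UTRs. A shorter pairing, bases 2 to 7 followed by A, gave GGTACGA for miR-126-3p, which 0.951% of the UTRs hold and, of the 10 genes, LRP6 alone. Of UTRs of 4500 to 6500 bases, the range of the LRP6 UTR, 2.99% hold it. That LRP6 match lies at chr12:12116239-12116245 of GRCh38 on the minus strand and is shown in its context because LRP6 is a reported target of miR-126. For miR-143-3p the shorter pairing, CATCTCA, was in LRP6 and GSK3B and in 15.6% of the UTRs. It was in 44.1% of those of 4500 to 6500 bases, the range of both.
LRP6, GGTACGA: tgttcattgactttGGTACGAtggtg
For the 5p arms, TAATAAT (miR-126-5p, 17.8% of the UTRs) was in 4 of the 10 genes, namely FZD6, AXIN1, GSK3B and DKK1. ACTGCAC (miR-143-5p, 15.7%) was in 3, FZD4, AXIN1 and GSK3B. Of UTRs of 4500 to 6500 bases, the range of the FZD4 and GSK3B UTRs, 52.5% held TAATAAT and 44.9% ACTGCAC. With the miR-126 mimic the log2 fold changes of FZD6, AXIN1 and GSK3B were 0.47, -0.60 and -0.09, none with an adjusted p under 0.05 in limma. The DKK1 match of the miR-126 5p arm lies at chr10:52317646-52317652 on the plus strand. It was picked to be shown because the DKK1 transcript fell with that mimic in these data, so it supports nothing, and whether the site acts was not tested.
DKK1, TAATAAT: agtttccaataaatTAATAATaccta
CTNNB1 held none of these 6 motifs in its 3′ UTR. A match is a feature of the sequence alone, and the absence of one says only that these letters are not in the annotated UTR.

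Values were TPM, a transcript abundance that divides by transcript length and sums to the same total in every library. TPM were summed per gene symbol. A gene was tested when at least 3 libraries held at least 1 TPM, which 13750 genes passed, on the scale log2(TPM + 1), where changes of low genes are understated. Of the 10 genes, 9 passed, and FZD7 did not. Differences were called at an adjusted p under 0.05 (limma, Benjamini-Hochberg over all 13750 genes in each comparison). Depth cannot be read from TPM and is unknown. From 12299 to 13564 genes reached 1 TPM per library. Replicate 4 of the miR-143 mimic and replicate 4 of the miR-150 mimic are shifted toward short transcripts and are called the 2 short-transcript libraries here. Across genes, Spearman's rho of the deviation with transcript length was -0.40 and -0.55 in them and -0.01 to 0.29 in the others. All 11 endothelial markers, among them PECAM1, CDH5 and VWF, averaged at least 1 TPM, and their sum ranged from 1125 to 2200 TPM over the libraries. Fibroblast and pericyte markers summed to 40.25 to 136.7 TPM, 6 of 10 averaging at least 1 TPM and 3 below 1 TPM in every library, and leukocyte markers to 27.4 to 70.6 TPM, nearly all from CD68. Epithelial markers summed to 449.1 to 633.9 TPM in the controls, 525.8 to 579.5 with the miR-126 mimic, 731.3 to 952.2 with the miR-143 mimic and 902.4 to 1027 with the miR-150 mimic, nearly all from KRT18, while CDH1, KRT5 and KRT14 were under 1 TPM in every library. Lymphatic markers summed to 137.4 to 147.3 TPM in the controls and 62.96 to 111.2 TPM with the mimics, led by PDPN. PDPN alone averaged 129 TPM in the controls and 63.6, 57.5 and 83.5 TPM with miR-126, miR-143 and miR-150. In that order the log2 fold changes were 0.70, 0.10 and 0.12 for LYVE1 and 0.01, -0.44 and -0.32 for PROX1. They were 0.13, 0.05 and -0.57 for FLT4, and none of these was called, so the lower sum is that of PDPN. The part of these shifts in the results was not tested, and in bulk RNA fewer cells of a type and less RNA per cell cannot be told apart.

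In control cells CTNNB1 was the most abundant of the 10 transcripts, at 348 TPM. DKK1, FZD6 and GSK3B followed at 56.3, 53.9 and 53.6 TPM, with overlapping ranges. FZD4 (31.1 TPM) and LRP5 (28.7 TPM) also overlapped each other, as did AXIN1 (16.5 TPM) and LRP6 (14.6 TPM). TSPAN12 was low at 1.46 TPM and FZD7 lower still at 0.357 TPM. The transcript of the ligand Norrin, NDP, ranged from 0 to 0.582 TPM over the 12 libraries and was not tested, and its 3 highest values were those of the controls. The HMEC-1 cells thus carried transcripts of the receptor and both co-receptors well above 1 TPM, and those of TSPAN12 and the ligand near or below it.

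**Figure D1:**
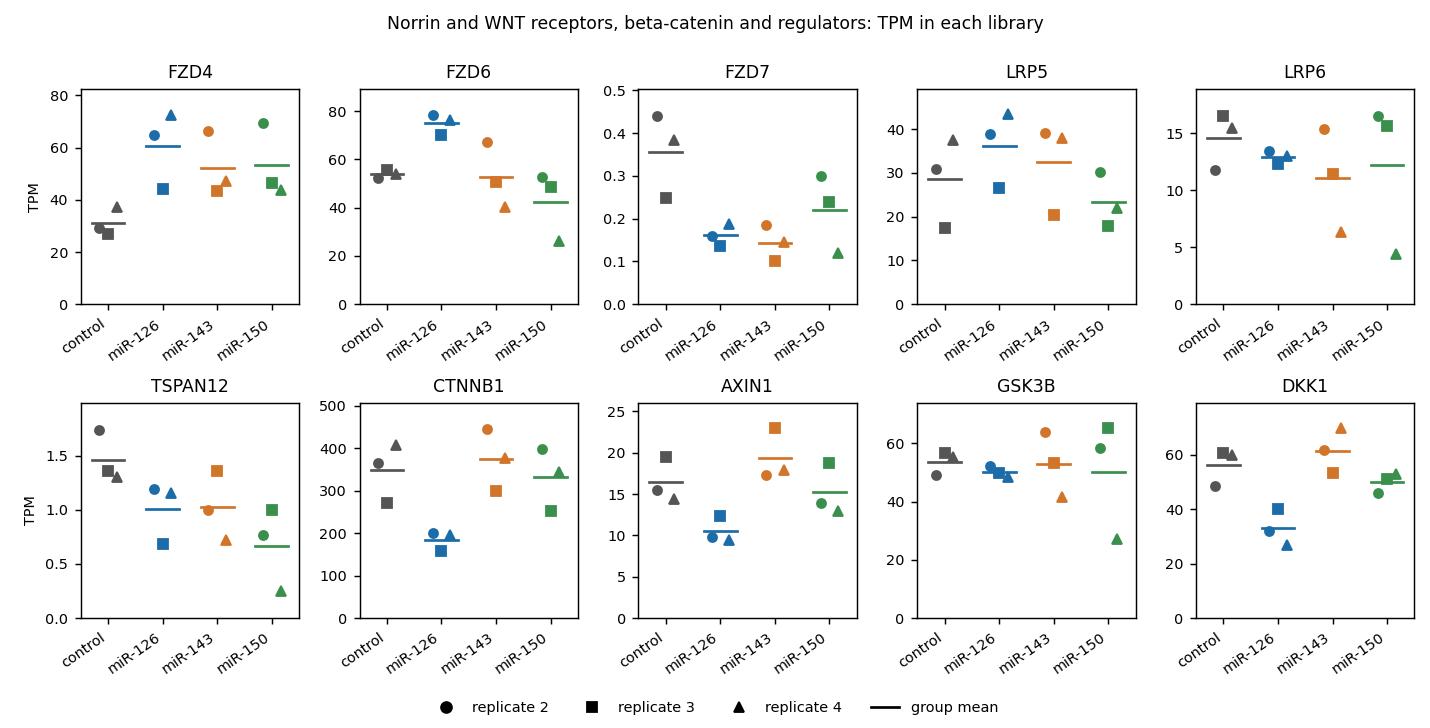
TPM of each of the 10 genes (vertical axes, each from 0) in the 3 libraries of each group, with 1 point per library, its shape giving the replicate number, and a bar at the group mean. All 9 mimic libraries lie above the 3 controls for FZD4, and the 3 miR-126 libraries lie below the 3 controls for CTNNB1, AXIN1 and DKK1.

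With the miR-126 mimic, CTNNB1 and DKK1 fell, to 0.537 and 0.587 of the control on the log2(TPM + 1) scale, while the receptor FZD4 stood 1.90 times as high as the control with an adjusted p just above the threshold. With the miR-143 and miR-150 mimics none of the 9 tested genes was called, although FZD4 was above all controls there too. Against the control, 0 of 9 genes rose and 2 fell with the miR-126 mimic, where 5.11% of all tested genes were called and 1.73% were lower (464 higher and 238 lower, or 354 and 547 after centring each library on its median gene). The counts were 0 and 0 with the miR-143 mimic (3.32% of all genes) and 0 and 0 with the miR-150 mimic (3.32%; 149 genes higher and 307 lower, or 245 and 337 after centring). At an unadjusted p under 0.05 the counts in limma were 4, 1 and 2 of 9, where 19.4%, 16.8% and 17.4% of all genes passed. The median log2 fold change of the 9 genes was -0.15, 0.10 and -0.18 in the 3 comparisons, beside 0.10, -0.04 and -0.11 over all tested genes. The 3 comparisons share the control libraries and are not independent of each other.

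**Figure D2:**
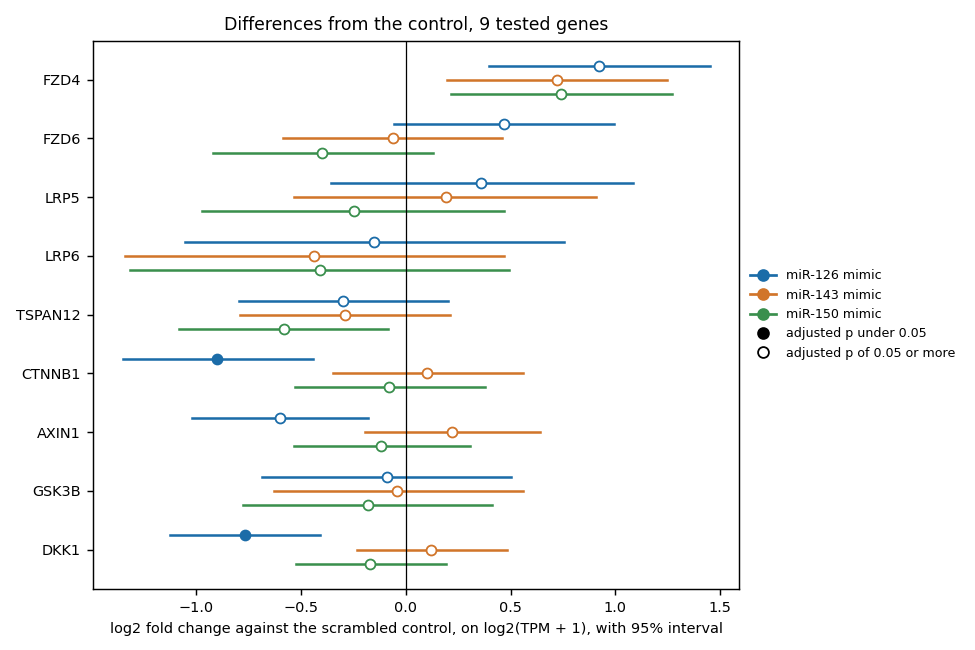
Log2 fold change of the 9 tested genes against the scrambled control on log2(TPM + 1) (horizontal axis), with 95% intervals from limma, for each mimic, n = 3 libraries a group. Filled points have an adjusted p under 0.05, which only CTNNB1 and DKK1 with the miR-126 mimic reach, and the intervals of FZD4 lie above 0 for all 3 mimics.

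FZD4, the frizzled receptor that Norrin binds, is a gene of chromosome 11 (86945679 to 86955391, minus strand, GRCh38) with 1 transcript in the table. Its level was 29.2, 26.8 and 37.2 TPM in control libraries 2, 3 and 4. It was 65.0, 44.0 and 72.6 TPM with the miR-126 mimic, 66.5, 43.3 and 47.0 TPM with the miR-143 mimic, and 69.5, 46.6 and 43.7 TPM with the miR-150 mimic. Every mimic library was thus above every control library, and library 3 was the lowest in 3 of the 4 groups. A separation of this kind, with all mimic libraries above the controls, was found for 23.1% of all genes with the miR-126 mimic, 11.4% with the miR-143 mimic and 6.87% with the miR-150 mimic. The means were 31.1 ± 5.43 (SD, n = 3), 60.6 ± 14.8, 52.3 ± 12.5 and 53.3 ± 14.1 TPM in the same order of groups.

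The log2 fold change of FZD4 was 0.92 (SE 0.241, adjusted p = 0.0502) with the miR-126 mimic. It was 0.72 (adjusted p = 0.146) with the miR-143 mimic and 0.74 (adjusted p = 0.127) with the miR-150 mimic. The test therefore called FZD4 in none of the 3 comparisons. Same-numbered libraries were also treated as pairs, by adding the replicate number as a block to the fit of all 12 libraries. With that block the adjusted p for FZD4 with the miR-126 mimic was 0.00923. It was also under the threshold (0.0359) when the 2 short-transcript libraries, neither of which is in that comparison, were kept out of the fit, and when replicate 3 of the miR-126 mimic was (0.0349). Of 10 alternative settings in all, 5 passed the threshold for FZD4, and the highest adjusted p was 0.0972. Of 6 fits that each left out 1 of the compared libraries, 1 passed, and the highest adjusted p was 0.172. The mimics did not separate from one another. The difference for FZD4 was 0.20 between miR-126 and miR-143 (95% interval -0.32 to 0.73), 0.18 between miR-126 and miR-150 (-0.35 to 0.71) and -0.02 between miR-143 and miR-150 (-0.55 to 0.51), so differences of these sizes cannot be told from none. FZD4 is also known as a reported target of miR-150 in retinal endothelium, and its transcript was not below the control in any of the 3 libraries with that mimic.

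FZD4 shares 1399 exonic bases, 18.95% of its own, with PRSS23 on the opposite strand. No source states that the counting used strand, so reads of the 2 genes there may not have been told apart, and FZD4 values are uncertain for that reason. PRSS23, a serine protease gene, averaged 285 TPM in controls and 276.5, 268.5 and 199 TPM in the miR-126, miR-143 and miR-150 groups. Its log2 fold changes of -0.03, -0.08 and -0.51 were not called, and none was above 0.

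The 7-mer GGTTGTG was added to the UTR search after an earlier look at these same libraries had singled it out as marking genes that are low in the controls, so it supports nothing here. It was in 3 of the 10 genes and in 8.93% of all UTRs, or 26.1% of those of 4500 to 6500 bases, the length of the FZD4, LRP6 and GSK3B UTRs that held it. The FZD4 match lies at chr11:86946231-86946237, minus strand.
FZD4, GGTTGTG: catcttctctccgaGGTTGTGaaagt

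FZD6, a receptor linked mainly to planar polarity signalling, was the other abundant frizzled transcript. It had 52.2, 55.5 and 54.1 TPM in the controls, 78.5, 70.2 and 76.5 TPM with the miR-126 mimic, 67.1, 50.6 and 40.3 TPM with the miR-143 mimic and 52.8, 48.4 and 26.3 TPM with the miR-150 mimic. The miR-126 libraries were above all other libraries. So were 23.1% of all genes against the controls, 19.2% against the miR-143 group and 21.8% against the miR-150 group. The lowest value was in replicate 4 of the miR-150 mimic, a short-transcript library. The log2 fold change of FZD6 was 0.47 (adjusted p = 0.315) with the miR-126 mimic, -0.06 with the miR-143 mimic and -0.40 (adjusted p = 0.435) with the miR-150 mimic, and none was called. Between the miR-126 and miR-150 mimics FZD6 differed by 0.87 (SE 0.239, adjusted p = 0.0670). That difference was called with the replicate block (adjusted p = 0.0171) and, at 0.56, in the fit lacking the 2 short-transcript libraries (adjusted p = 0.0354). In all, it was called in 5 of 10 alternative settings and in 0 of 6 fits that each left out 1 of the compared libraries. FZD6 also was called against the control with the miR-126 mimic when those 2 libraries were left out of the fit (0.47, adjusted p = 0.0242). FZD6 shares 3.39% of its exonic bases with the antisense gene BAALC-AS1 and is uncertain to that extent.

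FZD7, a receptor of canonical WNT signalling, ranged from 0.10 to 0.440 TPM and was under the filter in every library. The controls held 0.440, 0.248 and 0.383 TPM, and the miR-126 and miR-143 libraries were between 0.10 and 0.188 TPM. These values are too low for the fit and no test was made. Of the other frizzled genes, FZD2 averaged 5.09 TPM, FZD5 2.56 TPM and FZD1 1.39 TPM over the 12 libraries. FZD8, FZD9 and FZD3 averaged under 1 TPM, with highest values of 1.63, 0.80 and 1.31 TPM, and FZD8 was tested. FZD10 was listed at 0.

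The summed TPM of the 10 frizzled genes was 94.3, 94.9 and 104 in the controls, 156, 129 and 160 (rounded) with the miR-126 mimic, 142, 105 and 96.6 with the miR-143 mimic and 129, 106 and 76.9 with the miR-150 mimic. FZD4 and FZD6 together made up most of this sum in every library. FZD4 was 28.2% to 35.7% of it in the controls, 34.1% to 45.4% with the miR-126 mimic, 41.2% to 48.7% with the miR-143 mimic and 44.0% to 56.8% with the miR-150 mimic. The ranges of the miR-143 and miR-150 groups did not overlap that of the controls, and the range of the miR-126 group did. The ratio of FZD4 to FZD6 was 0.483 to 0.687 in the controls and reached 1.66 in replicate 4 of the miR-150 mimic, a short-transcript library.

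**Figure D3:**
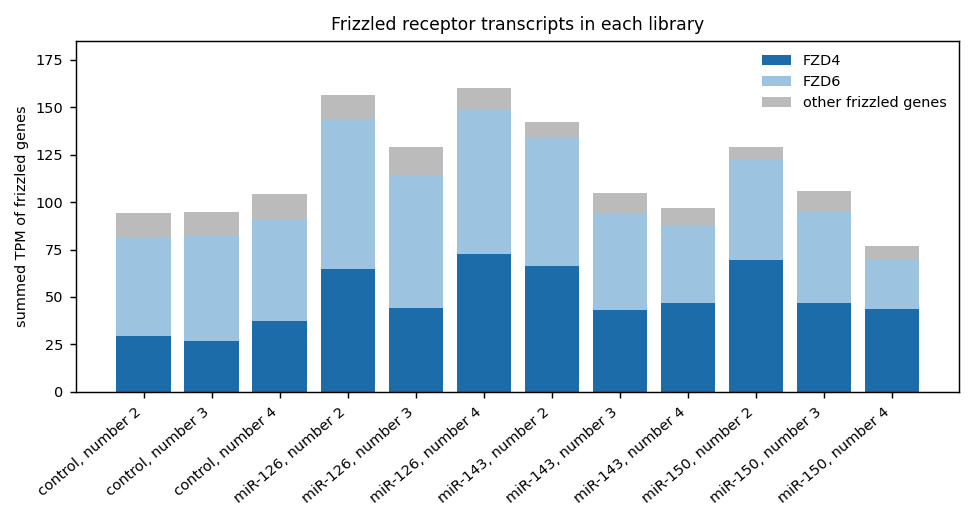
Summed TPM of the 10 frizzled genes in each of the 12 libraries (vertical axis, from 0), split into FZD4, FZD6 and the 8 others. FZD4 and FZD6 make up most of every bar, and the FZD4 part of the bar is smallest in the 3 control libraries.

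LRP5, the co-receptor that works with FZD4 in retinal vessels, had 31.0, 17.4 and 37.7 TPM in the controls. It had 38.8, 26.5 and 43.4 TPM with the miR-126 mimic, 39.2, 20.4 and 38.1 TPM with the miR-143 mimic and 30.2, 17.8 and 22.0 TPM with the miR-150 mimic. Library 3 was the lowest in all 4 groups, and the groups overlapped in every comparison with the control. The log2 fold changes of LRP5, 0.36, 0.19 and -0.25 in the order miR-126, miR-143, miR-150, were not called (adjusted p = 0.614, 0.827 and 0.742). LRP5 was 0.62 higher with the miR-126 mimic than with the miR-150 mimic (SE 0.329, adjusted p = 0.293), a difference called with the replicate block alone (adjusted p = 0.0220).

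LRP6, the second co-receptor, had 11.8, 16.5 and 15.5 TPM in the controls, 13.5, 12.3 and 13.0 TPM with the miR-126 mimic, 15.3, 11.5 and 6.34 TPM with the miR-143 mimic and 16.5, 15.7 and 4.39 TPM with the miR-150 mimic. The miR-126 libraries lay within the range of the controls. The 2 lowest values are those of the short-transcript libraries. The log2 fold change of LRP6 was -0.15 with the miR-126 mimic (SE 0.413, adjusted p = 0.909), and its 95% interval of -1.06 to 0.75 holds a fall as well as a rise. It was -0.44 with the miR-143 mimic and -0.41 with the miR-150 mimic (adjusted p = 0.663 and 0.654). Without them the LRP6 value was -0.12 with the miR-143 mimic and 0.14 with the miR-150 mimic. The table holds LRP6 as 2 Ensembl genes with equal TPM for matching transcripts, which were summed.

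TSPAN12, the tetraspanin that strengthens Norrin signalling, had 1.74, 1.36 and 1.30 TPM in the controls and 1.20, 0.682 and 1.16 TPM with the miR-126 mimic. It had 0.998, 1.36 and 0.718 TPM with the miR-143 mimic and 0.766, 0.995 and 0.251 TPM with the miR-150 mimic. All libraries of the miR-126 and miR-150 mimics were below all controls, as were 11.1% and 14.6% of all genes in those comparisons. The log2 fold changes of TSPAN12 were -0.30, -0.29 and -0.58 in the order miR-126, miR-143, miR-150, and none was called (adjusted p = 0.532, 0.586 and 0.209). At levels near 1 TPM the added 1 understates a change, and the lowest value is again replicate 4 of the miR-150 mimic.

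CTNNB1, beta-catenin, lies on chromosome 3 (41194741 to 41260096, plus strand, GRCh38). It had 365, 271 and 407 TPM in the controls and 200, 158 and 196 TPM with the miR-126 mimic. It had 446, 299 and 376 TPM with the miR-143 mimic and 399, 252 and 344 TPM with the miR-150 mimic. The 3 miR-126 libraries were below all 9 others, where 11.1% of all genes were below the controls in this way, 6.17% below the miR-143 group and 4.08% below the miR-150 group. Library 3 was the lowest of its group in all 4 groups. The means were 348 ± 69.4 (SD, n = 3), 184.7 ± 23.3, 374 ± 73.5 and 331 ± 74.3 TPM for the control, miR-126, miR-143 and miR-150 groups.

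CTNNB1 fell by 0.90 on the log2 scale with the miR-126 mimic (SE 0.207, adjusted p = 0.0312, lower in 3 of 3 libraries). The log2 fold changes of CTNNB1 with the miR-143 and miR-150 mimics were 0.10 and -0.08 (adjusted p = 0.850 and 0.887). The difference between mimics was itself tested. CTNNB1 was lower with the miR-126 than with the miR-143 mimic, at 0.499 of it (SE 0.207 on the log2 scale, adjusted p = 0.0299). Against the miR-150 mimic the difference of -0.82 missed the threshold (adjusted p = 0.0508) and passed it with the replicate block (adjusted p = 0.000601). In all, that difference passed in 5 of 10 alternative settings and in 1 of 6 fits that each left out 1 of the compared libraries. With the block the fall against the control had an adjusted p of 0.000265, and same-numbered libraries differed by -0.87, -0.78 and -1.05 on the log2 scale. The call against the control rests on few libraries. Without control 2 or 4, or without miR-126 replicate 2, 3 or 4, the adjusted p for CTNNB1 was between 0.0812 and 0.147, with log2 fold changes of -0.78 to -0.96. The call between the miR-126 and miR-143 mimics was also lost in 5 of 6 such fits, without any of the 3 miR-126 libraries or without miR-143 replicate 2 or 4, with adjusted p for CTNNB1 from 0.0923 to 0.109, and in the fit lacking the 2 short-transcript libraries (0.0622).

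The table holds 56 transcripts of CTNNB1, of which 16 average at least 1 TPM. Reads are divided among such transcripts by estimation, so these values are less certain than the sum. The most abundant, ENST00000396183.7, made up 39.0% of the gene's TPM. It had 142, 114 and 162 TPM in the controls and 81.5, 56.3 and 63.8 TPM with the miR-126 mimic, and fell by 1.04 (SE 0.193, adjusted p = 0.0430 over 58341 transcripts). The second, ENST00000646725.1, was 30.7% of the total and its change of -0.64 was not called (adjusted p = 0.541). A minor transcript, ENST00000644867.1, had 33.7, 16.5 and 17.5 TPM in the controls and 0.931, 0.00530 and 1.05 TPM with the miR-126 mimic (log2 fold change -3.82, SE 0.645, adjusted p = 0.0301). With the miR-150 mimic ENST00000644867.1 was also low, at 1.45, 0.602 and 1.46 TPM (-3.39, adjusted p = 0.0593), and with the miR-143 mimic it ranged from 3.86 to 33.3 TPM. For the sum of CTNNB1 the miR-150 libraries were not low, so the 2 groups that share a low ENST00000644867.1 differ in the level of the gene.

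**Figure D4:**
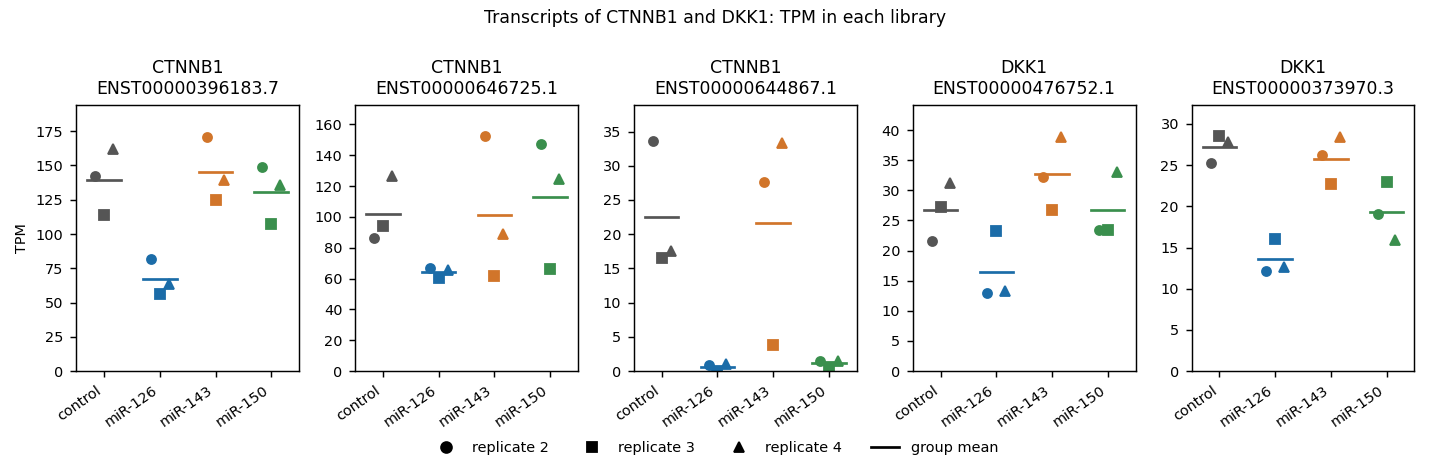
TPM of 3 CTNNB1 and 2 DKK1 transcripts (vertical axes, each from 0) in the 3 libraries of each group, with a bar at the group mean. The miR-126 libraries are the lowest for ENST00000396183.7 and lie below the controls for ENST00000373970.3, and ENST00000644867.1 is near 0 in the miR-126 and miR-150 groups.

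AXIN1, the scaffold of the destruction complex, had 15.5, 19.5 and 14.4 TPM in the controls, 9.85, 12.3 and 9.42 TPM with the miR-126 mimic, 17.3, 23.0 and 18.0 TPM with the miR-143 mimic and 13.9, 18.8 and 13.0 TPM with the miR-150 mimic. Library 3 was the highest in all 4 groups, the opposite of CTNNB1 and LRP5. The 3 miR-126 libraries of AXIN1 were below all 9 others. Of all genes, 11.1% were below the controls in this way, 6.17% below the miR-143 group and 4.08% below the miR-150 group. Its log2 fold change with the miR-126 mimic was -0.60 (SE 0.191, adjusted p = 0.0987) and was called with the replicate block (adjusted p = 0.00366), where same-numbered libraries differed by -0.61, -0.63 and -0.57. It was also called with each library centred on its median gene (-0.74, adjusted p = 0.0313). Between the miR-126 and miR-143 mimics AXIN1 was called as lower (-0.82, SE 0.191, adjusted p = 0.0473). That call was lost without any 1 of the 6 libraries compared (adjusted p for AXIN1 from 0.0683 to 0.190). Changes of AXIN1 with the miR-143 and miR-150 mimics, 0.22 and -0.12, were not called. The leading AXIN1 transcript, ENST00000354866.7, made up 87.4% of its TPM.

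GSK3B, the kinase that phosphorylates beta-catenin in that complex, had 49.1, 56.6 and 55.2 TPM in the controls and 52.1, 49.7 and 48.6 TPM with the miR-126 mimic. It had 64.0, 53.4 and 41.5 TPM with the miR-143 mimic and 58.5, 65.3 and 27.1 TPM with the miR-150 mimic. The 2 lowest values are again those of the short-transcript libraries, and the groups overlapped. The log2 fold changes of GSK3B were -0.09, -0.04 and -0.18 in the same order of mimics (adjusted p = 0.914, 0.966 and 0.775). Without those libraries the GSK3B values with the miR-143 and miR-150 mimics turned to 0.12 and 0.20, so they have no settled direction.

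DKK1, the secreted inhibitor of LRP5 and LRP6 and itself a known target gene of beta-catenin, lies on chromosome 10 (52314296 to 52318042, plus strand, GRCh38). It had 48.4, 60.7 and 59.8 TPM in the controls and 32.1, 40.02 and 26.6 TPM with the miR-126 mimic. It had 61.6, 53.2 and 69.6 TPM with the miR-143 mimic and 45.9, 51.0 and 52.9 TPM with the miR-150 mimic. The miR-126 libraries were again below all 9 others, and the other 3 groups lay between 45.9 and 69.6 TPM. Shares of all genes below in this way were 11.1% (control), 6.17% (miR-143 group) and 4.08% (miR-150 group). The miR-143 libraries lay above the miR-150 libraries, as did 10.3% of all genes, but that difference of 0.29 was not called (adjusted p = 0.485). DKK1 fell by 0.77 with the miR-126 mimic (SE 0.164, adjusted p = 0.0212, lower in 3 of 3 libraries), and by 0.91 (adjusted p = 0.0268) with each library centred on its median gene. The changes of DKK1 with the miR-143 mimic, 0.12, and the miR-150 mimic, -0.17, were not called (adjusted p = 0.763 and 0.648).

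DKK1 was lower with the miR-126 than with the miR-143 mimic by -0.89 (SE 0.164, adjusted p = 0.0172). The difference of -0.60 from the miR-150 mimic missed the threshold (adjusted p = 0.0636) and passed with the replicate block (adjusted p = 0.0277). In all, that difference passed in 4 of 10 alternative settings and in 1 of 6 fits that each left out 1 of the compared libraries. Without control 3 or 4, or without miR-126 replicate 2 or 4, the fall of DKK1 against the control had an adjusted p between 0.0698 and 0.104. Without miR-126 replicate 2 or 4, or without miR-143 replicate 2 or 4, the difference of DKK1 between those mimics had an adjusted p between 0.0604 and 0.0904. Of the 4 DKK1 transcripts, the protein-coding ENST00000373970.3 (42.8% of the TPM) fell by 0.96 with the miR-126 mimic (adjusted p = 0.0486). The other main transcript, ENST00000476752.1, had -0.70, which was not called (adjusted p = 0.339). DKK1 shares 9.61% of its exonic bases with the antisense gene PRKG1-AS1 and is uncertain to that extent.

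Between mimics, 0 genes were higher and 3 lower (CTNNB1, AXIN1 and DKK1) with the miR-126 than with the miR-143 mimic, where 2.52% of all tested genes were called and 1.05% were lower. Between the miR-126 and miR-150 mimics the counts were 0 and 0 (3.91% of all genes), and between the miR-143 and miR-150 mimics 0 and 0 (2.19%). At an unadjusted p under 0.05 in limma 4, 4 and 0 of the 9 passed for miR-126 against miR-143, miR-126 against miR-150 and miR-143 against miR-150, beside 16.0%, 21.6% and 14.2% of all genes. Centring each library on its median gene turned the split of all calls from 201 higher and 145 lower to 156 and 282 (miR-126 against miR-143), from 427 and 110 to 224 and 329 (miR-126 against miR-150) and from 218 and 83 to 198 and 126 (miR-143 against miR-150). With the replicate block FZD4 rose and CTNNB1, AXIN1 and DKK1 fell with the miR-126 mimic against the control (17.0% of all genes called). Against the miR-150 mimic the block gave 2 higher, FZD6 and LRP5, and 3 lower, CTNNB1, AXIN1 and DKK1 (18.9%). In the fit lacking the 2 short-transcript libraries, 2 genes rose (FZD4 and FZD6) and 2 fell (CTNNB1 and DKK1) with the miR-126 mimic against the control (13.3% of all genes). In that fit 0 were higher and 2 lower against the miR-143 mimic (4.20%), and 1 was higher and 0 lower against the miR-150 mimic (5.06%). Of 107 transcripts of the 10 genes, 46 were tested. With the miR-126 mimic 0 rose and 3 fell, those named for CTNNB1 and DKK1, where 0.571% of all transcripts were called. Between the miR-126 and miR-143 mimics ENST00000396183.7 alone was called, as lower (-1.10, adjusted p = 0.0471, with 0.303% of all transcripts called). None of the 46 was called in the other 4 comparisons, in which 0.310%, 0.379%, 0.264% and 0.225% of all transcripts were (miR-143 and miR-150 against the control, miR-126 and miR-143 against miR-150).

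The rest of the pathway was described by 7 lists written with earlier results of these data known, covering 121 other genes, of which 75 were tested. Few were called, and the called genes lay in different steps of the pathway. Among ligands and their secretion, 1 of 5 tested genes fell with the miR-126 mimic, 1 with the miR-143 mimic and 0 with the miR-150 mimic. That gene was WNT5B, a ligand of noncanonical signalling, at 12.3, 11.6 and 12.7 TPM in the controls. It was between 5.45 and 6.17 TPM with the miR-126 mimic and between 4.38 and 6.55 TPM with the miR-143 mimic. The log2 fold changes of WNT5B were -0.97 (SE 0.187, adjusted p = 0.0136) and -1.02 (SE 0.187, adjusted p = 0.0134). With the miR-150 mimic it was between 5.79 and 8.88 TPM, also below all controls (as were 14.6% of all genes), with -0.72 and an adjusted p of 0.0625.

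Among 12 other tested receptors and co-receptors, FZD1 alone was called, lower with the miR-126 mimic (-0.82, SE 0.197, adjusted p = 0.0354). FZD1 averaged 2.14 TPM in the controls and 0.764 TPM with that mimic, in which FZD4 and FZD6 lay above the controls. Among the 3 tested secreted and membrane inhibitors, DKK3 rose with the miR-126 and miR-143 mimics and SFRP1 fell with the miR-150 mimic. DKK3, a secreted relative of DKK1, had 81.0, 97.1 and 76.8 TPM in the controls. It had 236, 253 and 270 TPM (rounded) with the miR-126 mimic, 239, 257 and 242 TPM with the miR-143 mimic and 96.6, 128 and 84.9 TPM with the miR-150 mimic. The rises of DKK3 were 1.57 (SE 0.146, adjusted p = 0.000203) and 1.53 (SE 0.146, adjusted p = 0.00051), and DKK3 was higher with either mimic than with the miR-150 mimic (1.30, adjusted p = 0.00101, and 1.26, adjusted p = 0.00157). DKK1 and DKK3 thus differed in opposite directions with the miR-126 mimic. SFRP1, a secreted frizzled-like inhibitor, averaged 4.45 TPM in the controls and 1.36 TPM with the miR-150 mimic (-1.19, SE 0.245, adjusted p = 0.0238).

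Of 20 tested genes of the cytoplasmic signal and destruction complex, 0 were called with the miR-126 and miR-143 mimics, and CSNK1A1 alone fell with the miR-150 mimic. CSNK1A1 encodes casein kinase 1 alpha, which primes beta-catenin for GSK3B. It had 190, 185.5 and 203 TPM (rounded) in the controls and 138, 137 and 95.6 TPM with the miR-150 mimic (-0.66, SE 0.148, adjusted p = 0.0349). CSNK1A1 was 1.08 higher with the miR-126 mimic (adjusted p = 0.00344) and 1.02 higher with the miR-143 mimic (adjusted p = 0.00513) than with the miR-150 mimic. BTRC, the ubiquitin ligase subunit that recognises phosphorylated beta-catenin, was higher with the miR-126 than with the miR-143 mimic (1.39, SE 0.304, adjusted p = 0.0380). With the miR-143 mimic it was at 0.50 of the control, which was not called (adjusted p = 0.110).

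Of 16 nuclear partners of beta-catenin 0 were called with any mimic against the control, with median log2 fold changes of -0.22, -0.21 and -0.49 for miR-126, miR-143 and miR-150. Of 8 partners at adherens junctions, JUP rose with the miR-126 mimic and CDH2 fell with the miR-150 mimic. JUP, plakoglobin, the closest relative of beta-catenin, had 65.2, 55.9 and 64.1 TPM in the controls and 148, 97.0 and 157 TPM with the miR-126 mimic (1.08, SE 0.189, adjusted p = 0.00841). Library by library the 3 JUP values with that mimic were all above the controls, where those of CTNNB1 were all below. Of all genes, 23.1% lay above the controls in this way with that mimic and 11.1% below. CDH2, N-cadherin, averaged 38.95 TPM in the controls and 13.9 TPM with the miR-150 mimic (-1.58, SE 0.384, adjusted p = 0.0488), and 13.65 TPM with the miR-126 mimic (-1.45, adjusted p = 0.0536, and 0.00281 with the replicate block). Fibroblast and pericyte markers summed to 54.65 to 136.7 TPM in the controls and, overlapping these, 56.78 to 78.62 TPM with the miR-126 mimic. They summed to 40.25 to 52.0 TPM with the miR-150 mimic, and their part in the CDH2 values was not tested. Without the 2 short-transcript libraries the values with the miR-150 mimic were -1.14 for CDH2 (adjusted p = 0.0797) and -1.11 for SFRP1 (adjusted p = 0.0626), so neither was called there.

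Treating same-numbered libraries as pairs added calls in the comparisons where their deviations correlated above 0.1. For miR-126 against the control the pairing of number 2 is not established. With the miR-126 mimic against the control, the block gave 1 higher (FZD5) and 3 lower (FZD1, FZD8 and ROR1) of the 12 receptors, 2 higher (CSNK1A1 and CSNK1D) and 0 lower of the 20 cytoplasmic genes, 0 higher and 1 lower (SOX17) of the 16 nuclear partners and 1 higher (JUP) and 1 lower (CDH2) of the 8 junction partners. FZD5 stood at 0.82 (adjusted p = 0.00757) and ROR1, a receptor of WNT5A, at -0.97 (adjusted p = 0.0176). Against the miR-150 mimic the block gave 4 higher and 0 lower of the 12 receptors, 2 and 0 of the 3 inhibitors, 2 and 0 of the 20 cytoplasmic genes, 2 and 1 of the 16 nuclear partners, 2 and 0 of the 8 junction partners and 2 and 3 of the 15 targets. Against the miR-143 mimic it gave 2 and 0 receptors, 1 and 0 cytoplasmic genes, 0 and 1 nuclear partners, 1 and 1 junction partners and 2 and 2 targets. Between the miR-143 and miR-150 mimics it gave 1 and 0 receptors, 1 and 0 inhibitors and 1 and 0 cytoplasmic genes. It also gave 2 and 0 nuclear partners, 1 and 0 junction partners and 1 and 2 targets there. Over all 13750 tested genes the block called 2331, 2599, 1515 and 1340 in these 4 comparisons, in the order given. Whether the lists held more calls than such shares of all genes was not tested.

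Single libraries carried part of these calls. DKK3 was called in all 6 fits that left out 1 library in each of its 4 called comparisons, and CSNK1A1 in all 6 against the miR-150 mimic for either other mimic. Against the control, WNT5B was called in 2 of 6 such fits with the miR-126 mimic (lost without control 2 or 4 or miR-126 replicate 2 or 3, highest adjusted p = 0.0716) and in 3 of 6 with the miR-143 mimic (lost without control 2 or 4 or miR-143 replicate 2, highest adjusted p = 0.0754). FZD1 was called only without control 3 (highest adjusted p of the others 0.164), and JUP was lost only without miR-126 replicate 2 (adjusted p = 0.0503). With the miR-150 mimic, CDH2 was called only without miR-150 replicate 3 (highest adjusted p of the others 0.155). CSNK1A1 was lost without any 1 control or miR-150 replicate 4 (highest adjusted p = 0.161), and SFRP1 without control 2 or 4 or miR-150 replicate 2 or 4 (highest adjusted p = 0.127). BTRC between the miR-126 and miR-143 mimics was called in 0 of 6 (adjusted p from 0.0621 to 0.159).

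**Figure D5:**
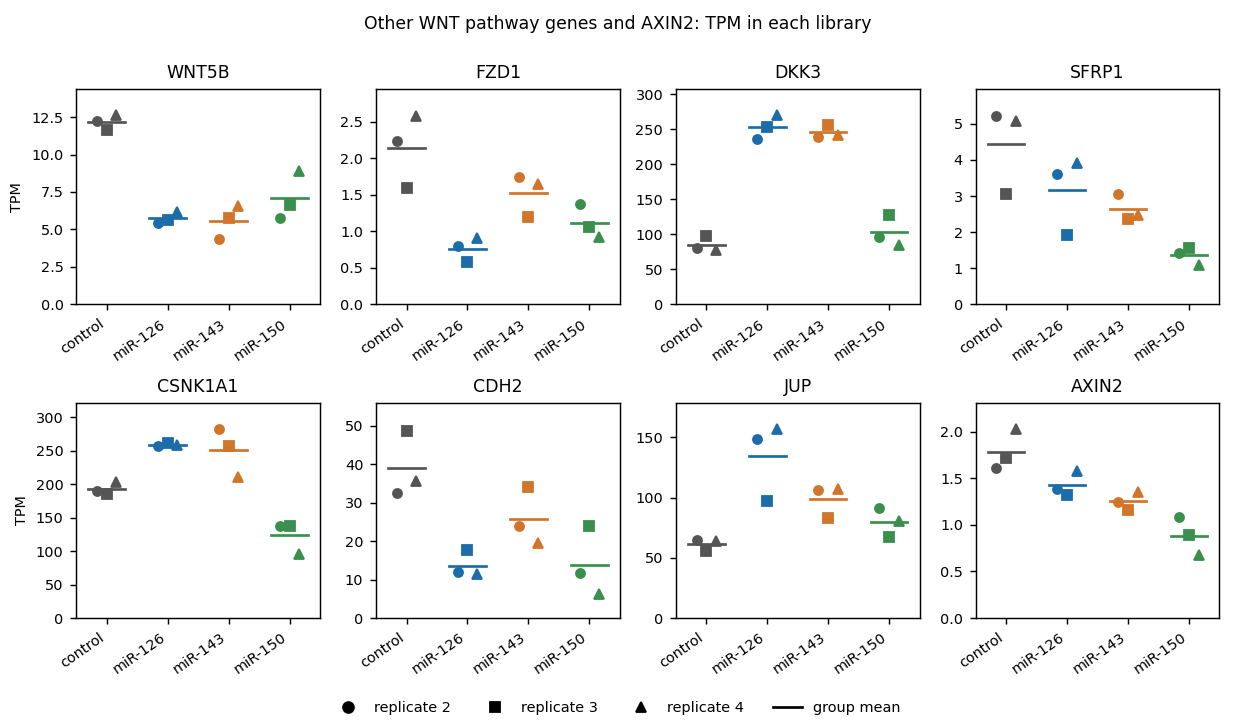
TPM of the 7 other pathway genes called against the control and of AXIN2 (vertical axes, each from 0) in the 3 libraries of each group, with a bar at the group mean. DKK3 is high in the miR-126 and miR-143 libraries, WNT5B is below the controls in all 9 mimic libraries, and CSNK1A1 is lowest with the miR-150 mimic.

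Of 15 tested reported target genes of endothelial beta-catenin, 0 rose and 0 fell with any mimic against the control. With the replicate block 2 rose (CLDN5 and ABCB1) and 2 fell (SOX17 and PLVAP) with the miR-126 mimic, where 17.0% of all genes were called. The median log2 fold changes were -0.19, 0.07 and 0.05 for miR-126, miR-143 and miR-150. AXIN2, the feedback gene most used as a readout of the pathway, had 1.61, 1.72 and 2.03 TPM in the controls and was below all controls with every mimic, as were 11.1% of all genes with the miR-126 mimic, 13.9% with the miR-143 mimic and 14.6% with the miR-150 mimic. Its log2 fold changes were -0.20, -0.30 and -0.57 (adjusted p = 0.597, 0.413 and 0.101), and AXIN2 was not called. LEF1, a nuclear partner and a target, averaged 5.11 TPM in the controls and 3.30 TPM with the miR-126 mimic (-0.52, adjusted p = 0.279). NKD1, another feedback gene, ranged from 0 to 0.377 TPM and was not tested.

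CLDN5, the tight junction claudin of blood vessels, had 6.03, 3.88 and 6.66 TPM in the controls, and all 9 mimic libraries were above, from 7.71 to 24.3 TPM. Of all genes, 23.1%, 11.4% and 6.87% lay above the controls in this way, in the order miR-126, miR-143, miR-150. The log2 fold changes of CLDN5, 1.22, 1.13 and 1.15, were not called, with an SE of 0.463 and library 3 the lowest of every group (adjusted p = 0.168, 0.243 and 0.221). With the replicate block the adjusted p for CLDN5 with the miR-126 mimic was 0.00300. SOX17, an endothelial transcription factor, had log2 fold changes of -0.54, 0.58 and 0.05, and only the first was called with the block (adjusted p = 0.0342). CCND1, cyclin D1, was 0.34, -0.78 and 0.43 against the control, not called, and was lower with the miR-143 than with the miR-150 mimic (-1.21, SE 0.266, adjusted p = 0.0407). Without the 2 short-transcript libraries, both in that comparison, the CCND1 difference was -1.26 and missed the threshold (adjusted p = 0.0507), as it did without replicate 2 or 4 of the miR-143 mimic or replicate 2 or 3 of the miR-150 mimic (highest adjusted p = 0.153). PLVAP, a marker of leaky vessels that beta-catenin signalling represses in the brain and retina, was lower with the miR-126 than with the miR-150 mimic (-1.19, SE 0.211, adjusted p = 0.0116). Its values against the control, -0.73 and 0.46, were not called, but the first was with the block (adjusted p = 0.00482) and in the fit lacking the 2 short-transcript libraries (adjusted p = 0.0270). The PLVAP difference between the mimics missed the threshold without replicate 2 of the miR-126 mimic (adjusted p = 0.0580).

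The genes most like FZD4 over the 12 libraries, by Pearson correlation of log2(TPM + 1), were NTN4 (0.965), PIGS (0.951), NOP14 (0.935), PHF7 (0.931) and SMARCB1 (0.928). NTN4, a netrin of basement membranes, had 59.9 to 68.6 TPM in the controls and 73.6 to 113 TPM in the mimic libraries. Among the genes most like CTNNB1 were SSRP1 (0.939), DERL2 (0.939), RNASE1 (0.937) and PMM1 (0.936). RNASE1, a secreted ribonuclease of endothelium, had 174, 60.8 and 169.7 TPM in the controls and 38.9, 19.0 and 37.2 TPM with the miR-126 mimic, so it shared with CTNNB1 both the low miR-126 group and the low library 3. These correlations describe 12 libraries that share groups and replicate numbers. With each value taken relative to its group mean, they were 0.81 to 0.95 for the genes named beside FZD4 and 0.79 to 0.91 for those named beside CTNNB1.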

How the data were processed

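RNA of 12 HMEC-1 libraries, 4 groups of 3, was analysed from 1 deposited table of TPM for 187626 transcripts. The authors made the TPM with kallisto, per the submitters' processing notes, which also name FastQC, sleuth and GRCh38. Its version, annotation and filters were not given in the sources used here. The labels' protocol speaks of miRNA libraries, while the table lists gene transcripts. TPM keep no read numbers, and a bias by transcript length stays in them. Columns were matched to samples by name. TPM were summed per symbol (171 transcripts without one were left out), and log2(TPM + 1) was fitted with limma 3.58.1 in R 4.3.3 (all 12 libraries, group only, mean-variance trend, two-sided). A gene was tested if 3 or more libraries held at least 1 TPM, p-values were adjusted by Benjamini-Hochberg per comparison, and the threshold was 0.05. Each mimic was compared with the control and each other mimic.

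The genes, the lists and the alternatives were chosen with earlier results of these data known. Named were all 10 genes, every gene of the pathway lists called against the control, AXIN2, LEF1, NKD1, CCND1, CLDN5 and SOX17 in any case, and the 5 genes most like FZD4 and CTNNB1, of which 1 is not reported here. BTRC, PLVAP, PRSS23, NDP and the genes named only for the replicate block were added after values had been seen. UTRs and positions came from GENCODE 29 on GRCh38, and microRNA sequences from RefSeq.

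The same replicate numbers occur in each group, and what they mark is not in the labels. Deviations of same-numbered libraries correlated, for miR-126 against the control, by 0.29, 0.63 and 0.40, by 0.28 to 0.66 for miR-126 against the other mimics and by 0.59 to 0.74 for miR-143 against miR-150. These are above 0.1, so the replicate block is given where it changes a call of the 10 genes or a count over a list. For miR-126 against the control, however, libraries of different numbers correlated by up to 0.29, as much as those of number 2. The pairing of number 2 is thus not established there. The highest values between different numbers were 0.16 for miR-126 against miR-143, 0.17 for miR-126 against miR-150 and 0.01 for miR-143 against miR-150. For miR-143 and miR-150 against the control the lowest same-numbered values were 0.04 and 0.07, and the numbers were not taken as pairs there. The block was nonetheless fitted to all 12 libraries, with the replicate effect shared by all 4 groups. Every adjusted p given with the block therefore rests on that shared effect.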

Additional observations from a re-analysis of the deposited data

How the results depend on the processing

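The fits were repeated with a pseudocount of 0.1, other filters, other scalings, the replicate block, 2 groups at a time, no mean-variance trend, lacking the 2 short-transcript libraries, and without each library in turn. CTNNB1 stayed lower with the miR-126 mimic than with the control in all of these, from -1.07 to -0.78, and DKK1 from -0.92 to -0.63; FZD4 stayed higher, from 0.78 to 1.13. CTNNB1 lost its call with no filter on low values (adjusted p = 0.0670) and in 5 of the 6 fits without a single compared library. DKK1 lost its call only without single libraries, in 4 of 6 such fits.

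Counts of the 10 genes called were, for miR-126 against the control, 2 in the main analysis, 1 with no filter on low values, and 4 each with quantile normalization (1029 of all genes called), the replicate block, only the 2 groups compared and without the 2 libraries. With at least 5 TPM 1 was higher and 2 lower, and with median centring and with the length trend removed 0 were higher and 3 lower. For miR-126 against miR-143 the counts were 3, then 1 each with no filter and with 2 groups, and 2 without the 2 libraries. For miR-126 against miR-150 they were 0, then 1 with at least 5 TPM (596 of all genes called), 4 each with median centring (553), quantile normalization (613) and the length trend removed (960), 5 with the replicate block and 1 without the 2 libraries. Against the control, FZD4 alone was called with miR-150 after the length trend was removed (1) and with miR-143 and miR-150 under the replicate block (1 each), where the numbers are no proven pairs. Leaving out 1 library gave 0 to 2 for miR-126 against the control, 0 to 2 against miR-143, 0 to 1 against miR-150 and 0 in the other 3 comparisons. Member transcripts called changed with the replicate block to 1 (miR-150 against the control), 3 (miR-126 against miR-143), 1 (miR-126 against miR-150) and 1 (miR-143 against miR-150), and with pseudocount 0.1 to 1 (miR-126 against miR-150).

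All genes called numbered 702, 457, 456, 346, 537 and 301 for miR-126, miR-143 and miR-150 against the control, miR-126 against miR-143, miR-126 against miR-150 and miR-143 against miR-150. In the same order they were 1514, 1070, 919, 837, 960 and 645 with the length trend removed, 2331, 1775, 1694, 1515, 2599 and 1340 with the replicate block, and 1673, 266, 57, 187, 19 and 4 with 2 groups, where fewer samples set the spread. Quantile normalization gave 764 for miR-143 against the control. Without the 2 libraries there were 1835, 707 and 578 (miR-126 against the control, miR-143 against the control, miR-126 against miR-143). Counts of all genes within a factor of 1.5 of the main count are not listed. Leaving out 1 library gave 214 to 472, 139 to 339, 125 to 553, 77 to 183, 117 to 717 and 127 to 353. Centring moved the median of all genes with miR-126 against the control from 0.10 to -0.04.

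Some uncalled values changed sign, and the cause was not tested. With median centring they were AXIN1 0.01 and CTNNB1 0.05 (miR-150 against the control), FZD4 -0.08, GSK3B -0.17 and LRP6 -0.01 (miR-126 against miR-150), GSK3B 0.01 (miR-143 against the control) and LRP5 -0.01 (miR-126 against miR-143). With quantile normalization they were AXIN1 0.03 (miR-150 against the control), GSK3B -0.13 and LRP6 -0.06 (miR-126 against miR-150). With the length trend removed they were AXIN1 0.09, CTNNB1 0.11, GSK3B 0.05 and LRP5 0.01 (miR-150 against the control), FZD6 0.01 and GSK3B 0.10 (miR-143 against the control), FZD4 -0.07 and LRP5 -0.05 (miR-126 against miR-143), FZD4 -0.20, GSK3B -0.23 and LRP6 -0.13 (miR-126 against miR-150). Without the 2 libraries they were FZD6 0.11 and GSK3B 0.12 (miR-143 against the control), GSK3B 0.20 and LRP6 0.14 (miR-150 against the control), LRP6 -0.03 (miR-126 against miR-143), GSK3B -0.30 and LRP6 -0.29 (miR-126 against miR-150) and GSK3B -0.08 (miR-143 against miR-150).

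Without single libraries the sign changed within these ranges. With miR-143 against the control they were CTNNB1 -0.06 to 0.26, FZD6 -0.25 to 0.11, GSK3B -0.18 to 0.12 and LRP5 -0.12 to 0.48. With miR-150 against the control they were AXIN1 -0.27 to 0.01, CTNNB1 -0.24 to 0.11, GSK3B -0.42 to 0.20 and LRP6 -0.71 to 0.14. With miR-126 against miR-143 they were GSK3B -0.22 to 0.09, LRP5 -0.12 to 0.38, LRP6 -0.03 to 0.54 and TSPAN12 -0.12 to 0.12. With miR-126 against miR-150 they were GSK3B -0.30 to 0.32 and LRP6 -0.29 to 0.56, and with miR-143 against miR-150 CTNNB1 -0.01 to 0.33, FZD4 -0.20 to 0.18, GSK3B -0.24 to 0.38 and LRP6 -0.58 to 0.29. Under the replicate block CTNNB1, DKK1 and AXIN1 kept their calls between miR-126 and miR-143 (adjusted p = 0.000373, 0.00772 and 0.00155), and FZD4 was called with miR-143 and miR-150 against the control (0.0326 and 0.0305).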
